A study of Mus musculus with 5 samples.

Results

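The genes described here take part in sodium uptake across tight epithelia or in its control by aldosterone. They were chosen by name as 7 genes: the epithelial sodium channel subunits Scnn1a, Scnn1b and Scnn1g, the steroid dehydrogenase Hsd11b2, the mineralocorticoid receptor Nr3c2, the kinase Sgk1 and the sodium pump subunit Atp1b1. Of these, 6 had at least 1 probe set annotated to that gene alone, with 10 probe sets between them, out of 12393 genes with 20380 such probe sets. Nr3c2 was not analysed here. Of the 6 genes, 5 had 1 probe set each and Atp1b1 had 5, of which the one with the highest mean signal over the arrays stands for the gene.

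Aldosterone enters principal cells of the kidney's collecting duct and surface cells of the distal colon, where it binds the mineralocorticoid receptor. The enzyme encoded by Hsd11b2 inactivates glucocorticoids in these cells, which would otherwise occupy the same receptor. The receptor raises transcription of Sgk1, whose kinase keeps the ubiquitin ligase NEDD4L from removing the channel from the apical membrane. Sodium enters through the channel and is pumped out at the basolateral side by the sodium pump, to which Atp1b1 contributes a beta subunit. In rat distal colon, aldosterone and a low-sodium diet are known to raise the beta and gamma channel subunits, while the alpha subunit is made constitutively.

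Total RNA came from 2 pools of C57BL/6 mice, one of the colon of adults aged 8 weeks and one of the whole body of pups aged 1 day, each from several animals. The pools were mixed so that colon supplied 0%, 25%, 50%, 75% or 100% of the total RNA, and 10 ng of each mix was amplified in a double T7 protocol and hybridised to 1 Affymetrix array. No mix had a second array, and 1 array a mix limits the precision. The labels name no region of the colon, sex, diet, salt intake or hormone treatment. The pools differ in age as well as in tissue, and these cannot be told apart. In such bulk RNA, more cells of a type and more RNA per cell cannot be told apart either. Values are log2 RMA signals, and series of 5 values run from whole mouse (0% colon) to colon (100%).

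The tissue labels were checked against marker genes. The intestinal factor Cdx2 had a signal of 10.77 in colon and 7.38 in whole mouse, the intestinal lectin Lgals4 13.92 and 11.40, and the epithelial adhesion protein Epcam 13.45 and 10.01. Markers of other organs were less abundant in colon. By the regression described below, 17 of 28 listed genes fell and none rose, against 14.5% and 9.8% of all genes. Actn2 of striated muscle had 5.65 in colon and 12.39 in whole mouse, the liver's Alb 6.48 and 13.70, the lung's Sftpc 5.55 and 12.97, the epidermal keratin Krt5 6.58 and 12.00, and the neuronal Stmn2 7.98 and 10.50. Some had sizeable signals in colon or differed little: the liver's Ttr had 10.08 in colon and 12.98 in whole mouse, the lung's Sftpb 7.73 and 8.43, the neuronal Snap25 5.05 and 5.47, and the kidney's Aqp2 7.57 and 8.29. Medians of the 5 arrays lay between 6.83 and 6.92.

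Colon RNA carried more Hsd11b2, Sgk1, Atp1b1 and Scnn1a signal than RNA of the whole newborn, whereas the signals of Scnn1b and Scnn1g lay between 6.85 and 7.02 on all 5 arrays. Between the undiluted RNAs Hsd11b2 differed 15.7-fold, Sgk1 6.06-fold, Atp1b1 3.22-fold and Scnn1a 1.99-fold, colon over whole mouse, by the brightest probe set of each. The whole mouse signal of Hsd11b2 (5.46) lay below the array medians and Atp1b1 lay among the brightest signals, where mixtures read differently, so the sizes of these folds are not compared. In a limma regression of log2 signal on the colon share over all 22626 probe sets, 2 of the 6 genes rose past an adjusted p of 0.05 (Scnn1a and Sgk1) and none fell. By their brightest probe sets, 9.8% of all 12393 genes rose and 14.5% fell. When the same test was run on linear intensity, 4 of the 6 passed upward (also Hsd11b2 and Atp1b1), against 13.6% of all genes. A signal in proportion to RNA would follow the mix on that scale, but the mixtures departed from it, as described below. Signals increased at every step of the dilution in 4 of the 6, against 8.66% of genes, and 3 were at least 2-fold higher in colon, against 9.26%. The median undiluted difference of the 6 was 1.34 log2, beside −0.01 over all genes.

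**Figure D1:**
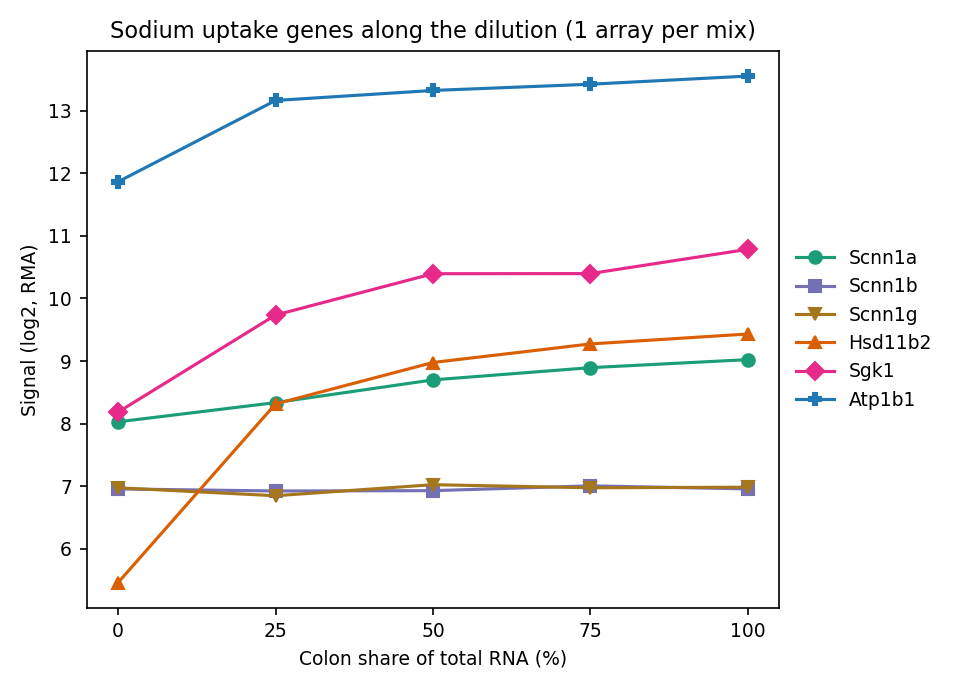
Log2 RMA signal (vertical axis) of the brightest probe set of each of the 6 genes against the colon share of total RNA in percent (horizontal axis), with 1 array per point. Hsd11b2, Sgk1, Atp1b1 and Scnn1a climb at every step, with the largest step from 0% to 25% colon for all but Scnn1a, while Scnn1b and Scnn1g stay between 6.85 and 7.02.

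Scnn1a encodes the alpha subunit, without which the channel passes almost no current. Its signals were 8.03, 8.34, 8.70, 8.89 and 9.02 in order of rising colon share. No array broke the order. The fitted slope, colon minus whole mouse, was 1.02 log2 (SE 0.12, limma adjusted p = 0.0104). Its probe set lay higher in slope than 93.1% of all probe sets. The mixtures lay within 0.09 log2 of the values that the 2 undiluted intensities give when weighted by the mix. The call was lost without the whole mouse array (slope 0.90, adjusted p = 0.0569) and without the 75% mixture (0.99, adjusted p = 0.0511).

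Scnn1b and Scnn1g encode the beta and gamma subunits, which carry the channel to the membrane and bind the ubiquitin ligase through their tails. Scnn1b had signals of 6.96, 6.92, 6.93, 7.01 and 6.96. Scnn1g had signals of 6.97, 6.85, 7.02, 6.97 and 6.98. Neither climbed step by step: colon minus whole mouse was 0.00 log2 for Scnn1b, an exact tie of the kind RMA gave in 40.5% of probe sets, and 0.01 for Scnn1g. The slope of Scnn1b was 0.03 log2 (95% interval −0.21 to 0.28, limma adjusted p = 0.86). That of Scnn1g was 0.06 (95% interval −0.24 to 0.35, limma adjusted p = 0.787). The upper ends of these intervals correspond to 1.21-fold and 1.28-fold higher signals in colon. The interval of Scnn1a, 0.70 to 1.34, did not overlap them, but the slopes were not tested against each other.

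The ranges of both were set beside those of probe sets of like signal. These 2 genes are singled out here for their flat slopes, so small ranges are partly built in. Flat profiles were also common over all genes. After each probe set's own mean was subtracted, 2734 genes lay within 0.1 log2 (root mean square) of Scnn1b and 2133 of Scnn1g. Of 1959 probe sets with a mean within 0.25 log2 of that of Scnn1b, 2.4% had a range over the 5 arrays as small as its 0.08. Of 1965 with a mean near that of Scnn1g, 8.04% had a range as small as its 0.18, and the median range of these probe sets was 0.50. The mean signals of 6.95 and 6.96 lay beside the median of all probe sets, 6.91. The deposited table holds no detection calls, so a transcript present in equal amounts in both RNAs and a probe signal without transcript cannot be told apart here.

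Both genes lie on chromosome 7. Their upstream stretches are shown because these are the 2 genes with slopes nearest to 0, with the letters GGGCGG or CCGCCC (the core of a GC box) in capitals. They are from RefSeq, build GRCm38.p6, plus strand, at chr7:121864788-121865037 for Scnn1b and chr7:121734229-121734419 for Scnn1g.
Scnn1b: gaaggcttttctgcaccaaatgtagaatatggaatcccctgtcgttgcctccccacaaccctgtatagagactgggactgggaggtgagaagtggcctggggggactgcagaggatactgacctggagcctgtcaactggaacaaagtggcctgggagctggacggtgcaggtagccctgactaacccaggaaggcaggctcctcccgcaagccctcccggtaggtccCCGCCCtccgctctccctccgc
Scnn1g: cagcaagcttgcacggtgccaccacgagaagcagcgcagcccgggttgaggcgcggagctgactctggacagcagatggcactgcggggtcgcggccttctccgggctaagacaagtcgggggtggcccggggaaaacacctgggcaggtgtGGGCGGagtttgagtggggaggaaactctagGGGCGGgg
The GC box letters, sought on both strands, occurred in 35.7% of 32851 promoter windows of 300 bases, 250 before and 50 after a start. Neither window held AGAACA or TGTTCT, the half-site of corticosteroid receptors read on each strand, which occurred in 19% of windows.

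Hsd11b2 encodes 11-beta-hydroxysteroid dehydrogenase type 2, the guard of the mineralocorticoid receptor. Its signals were 5.46, 8.32, 8.98, 9.27 and 9.43. The whole mouse array stood far below the other 4. By the brightest probe set of each gene, it alone among the 6 was at least 8-fold higher in colon, as were 1.24% of all genes. A pair of dimmer Atp1b1 probe sets also passed that size. The fitted slope was 3.56 log2 (SE 0.96) and missed the threshold on the log2 scale (limma adjusted p = 0.0617), while on linear intensity the adjusted p was 0.00445. It also passed with array medians subtracted (adjusted p = 0.0356) and with dim probe sets left out (adjusted p = 0.0465). Without the whole mouse array the slope was 1.46 (adjusted p = 0.0649). Kidney tubule markers, another site of this enzyme, ran the other way, with none of 7 rising and 4 falling, against 9.8% and 14.5% of all genes. Their mean signal was 5.92 in colon and 7.05 in whole mouse. Their part in the values of the whole mouse array was not tested.

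Sgk1 encodes serum- and glucocorticoid-regulated kinase 1, an early aldosterone-induced gene. Its signals were 8.18, 9.74, 10.40, 10.40 and 10.78, so that the 50% and 75% mixtures were nearly level and the whole mouse array stood lowest. The slope was 2.34 log2 (SE 0.52, limma adjusted p = 0.0395), higher than in 98.5% of probe sets. The call did not outlast the loss of any 1 array: the adjusted p was 0.0831 without whole mouse (where the slope was 1.26), 0.0601 without the 25% mixture, 0.0699 without the 50%, 0.117 without the 75% and 0.119 without colon.

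A stretch beside one of the RefSeq starts of Sgk1 is shown because it carries the palindrome to which mineralocorticoid and glucocorticoid receptors are known to bind. It lies at chr10:21993694-21993722 (GRCm38.p6, plus strand), and the capitals mark its half-sites.
Sgk1: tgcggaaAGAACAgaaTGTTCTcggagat
The motif ends 175 bases before the start whose window holds it and 951 bases before the next. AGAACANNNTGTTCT reads the same on both strands, contains the half-sites AGAACA and TGTTCT, and occurred in 3 of 32851 promoter windows: those of Sgk1, Acnat2 and the predicted gene Gm35041. Of the 6 Sgk1 windows 1 held the palindrome and 3 a half-site. A match of letters is no measure of binding, and the array does not tell which start was used.

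Atp1b1 encodes the beta-1 subunit, which helps the sodium pump to fold and reach the membrane. Its brightest probe set (1423890_x_at) had signals of 11.87, 13.16, 13.32, 13.42 and 13.55. The whole mouse array was lowest, and the other 4 lay close together. The slope was 1.45 log2 (SE 0.43, limma adjusted p = 0.0787), and on linear intensity the adjusted p was 0.0311. The mean of the 5 probe sets had a slope of 1.97 (adjusted p = 0.035).

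The 5 probe sets of Atp1b1 agreed in direction and differed in size. The second brightest (1451152_a_at) had 11.55, 12.61, 12.83, 12.90 and 13.09, a slope of 1.34 (adjusted p = 0.0563). Another (1418453_a_at) had 8.46, 10.76, 11.54, 11.74 and 12.02 and rose by 3.24 log2 (SE 0.76, limma adjusted p = 0.0458), beside 8.63% of all probe sets that rose. That call was lost without any 1 of the arrays (slopes of 1.59 to 4.24, adjusted p of 0.0621 to 0.134) and with a variance trend and robust moderation (adjusted p = 0.0585). A similar one (1439036_a_at) had 8.03, 10.87, 11.66, 11.55 and 11.97, a slope of 3.43 (adjusted p = 0.0726). Undiluted, the last 2 differed 11.8-fold and 15.4-fold, against 3.22-fold for the brightest. The dimmest (1455949_at) had 6.50, 6.37, 6.57, 6.57 and 6.90, a slope of 0.40 (adjusted p = 0.149). Probe sets ending in _x_at may share probes with other transcripts, and those ending in _a_at can detect several transcripts of a gene.

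**Figure D2:**
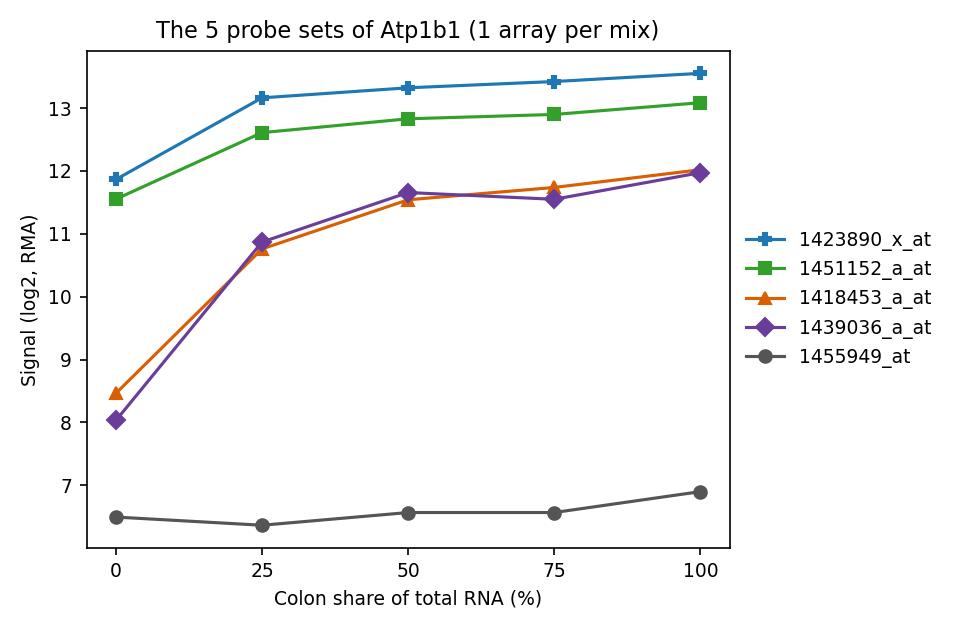
Log2 RMA signal (vertical axis) of the 5 Atp1b1 probe sets against the colon share of total RNA in percent (horizontal axis), with 1 array per point. The pair of brightest probe sets spans 1.69 and 1.53 log2 between colon and whole mouse, the next pair 3.56 and 3.94, and the dimmest 0.40.

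The stretch upstream of Atp1b1 is shown for comparison with the channel subunits, at chr1:164458356-164458605 (GRCm38.p6, RefSeq, minus strand), with TATATA and the GC box letters in capitals.
Atp1b1: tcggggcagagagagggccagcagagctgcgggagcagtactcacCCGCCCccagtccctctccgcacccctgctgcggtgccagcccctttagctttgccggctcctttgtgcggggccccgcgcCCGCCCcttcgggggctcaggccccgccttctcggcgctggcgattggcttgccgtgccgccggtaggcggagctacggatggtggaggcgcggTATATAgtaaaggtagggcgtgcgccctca
TATAAA or TATATA, on either strand, occurred in 17.1% of windows, among them that of Atp1b1 and 2 of Sgk1 but not those of Scnn1b and Scnn1g. The Atp1b1 window held no half-site of corticosteroid receptors.

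**Figure D3:**
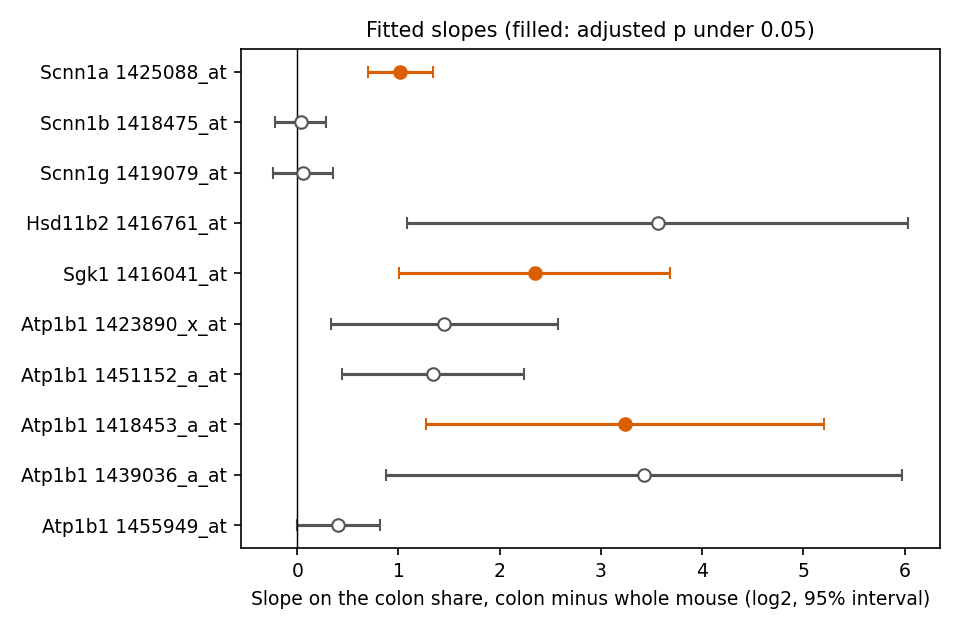
Fitted slope on the colon share in log2, colon minus whole mouse (horizontal axis), with its 95% interval, for each of the 10 probe sets (vertical axis), with filled points for an adjusted p under 0.05. The intervals of Scnn1b and Scnn1g are narrow and hold 0, that of Scnn1a runs from 0.70 to 1.34, and those of Hsd11b2 and of the Atp1b1 probe sets 1418453_a_at and 1439036_a_at are wide.

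The mixtures show how each gene followed the dilution. On linear intensity, the distance of a mixture from whole mouse divided by the distance of colon from whole mouse reads a colon share from any gene that differs at least 2-fold. Hsd11b2 read 42.4%, 71.1% and 88.9% in the mixtures prepared with 25%, 50% and 75% colon. Sgk1 read 38.1%, 71.7% and 71.8%. Atp1b1 read 65.7%, 78.6% and 87.5%. All 3 genes thus read more colon than was mixed in, apart from Sgk1 in the 75% mixture. The 1853 probe sets at least 2-fold higher in colon read a median of 43.1%, 62.6% and 73.2%, with quartiles of 35% and 52.3% in the 25% mixture, so that Hsd11b2 and Sgk1 lay inside the quartiles there and Atp1b1 above them. In the 75% mixture, with quartiles of 60.8% and 87.4%, Sgk1 lay inside them, and Hsd11b2 and, narrowly, Atp1b1 above them. The 1763 probe sets at least 2-fold higher in whole mouse read a median of 35.9%, 62.7% and 80.6%. Reading more colon than was mixed in was thus not particular to these genes, and its source was not tested.

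The reading of Atp1b1 differed with the height of its probe set. In the 25% mixture the 2 brightest probe sets read 65.7% and 57.1%, and those with colon signals near 12 read 36.4% and 42.8%. Among the probe sets higher in colon, 50 with a colon signal of at least 13 read a median of 62.5% there, and 1803 below 13 read 42.6%. Scnn1a fell just short of the 2-fold minimum and was given no reading.

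**Figure D4:**
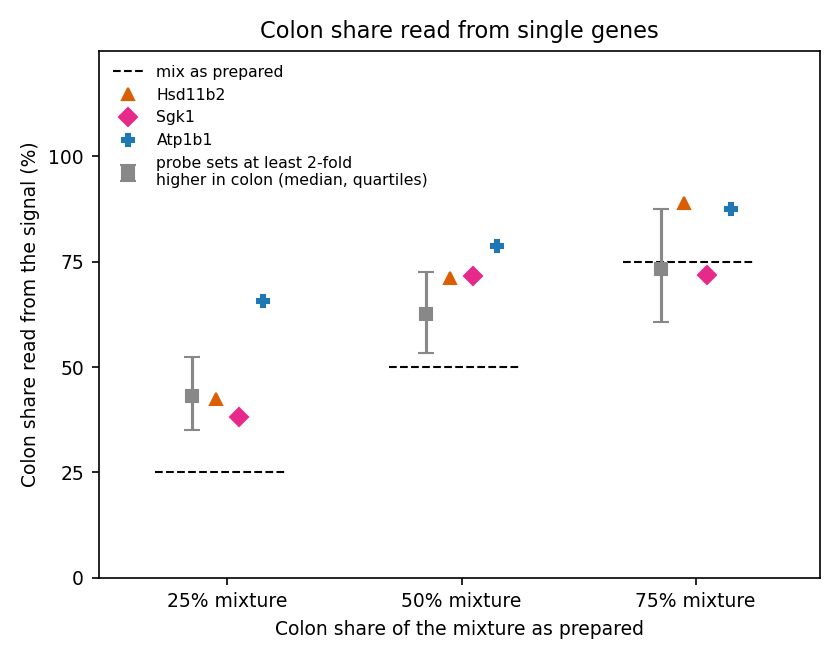
Colon share read from the linear intensity in percent (vertical axis) for each of the 3 mixtures (horizontal axis), from Hsd11b2, Sgk1 and Atp1b1, with grey squares for the median and quartiles over 1853 probe sets at least 2-fold higher in colon, and dashed lines for the share as prepared. Points are set side by side within each mixture for legibility. In the 25% mixture Hsd11b2 (42.4%) and Sgk1 (38.1%) lie beside the grey median of 43.1%, and Atp1b1 lies at 65.7%.

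The genes whose profiles came nearest were found by the root mean square difference over the 5 arrays after each probe set's own mean was subtracted. For Hsd11b2 these were Clec2h (0.06 log2), Cyp2d34 (0.09) and the membrane protease gene Tmprss2 (0.09). For Sgk1 they were Slc44a3 (0.04), the antioxidant transcription factor gene Nfe2l2 (0.04) and the protease gene Bace2 (0.05). For Scnn1a they were Lsr (0.02), Ngef (0.02) and Tm2d2 (0.03), and for Atp1b1 they were Rgs5 (0.05), Mid1ip1 (0.06) and the glucose transporter gene Slc2a1 (0.06). How common a profile was differed widely: 3 genes lay within 0.1 log2 of Hsd11b2, 18 of Sgk1, 21 of Atp1b1, 131 of Scnn1a, 2133 of Scnn1g and 2734 of Scnn1b. Hilpda, Zcchc8 and Cpxm2 were nearest to Scnn1b, and Slc31a2, Ppp1r21 and Mpv17l to Scnn1g, all at 0.01.

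Other genes of the same machinery were grouped by role, and 47 of 56 listed genes had values. Of these, 12 rose and 7 fell on the log2 scale, against 9.8% and 14.5% of all genes, and 21 rose and 7 fell on linear intensity, against 13.6% and 15.8%. The median slope was 0.42 log2, beside −0.01 over all genes. Below, a gene rose or fell by its fitted slope (colon minus whole mouse), with limma's adjusted p. The number that passed was smaller without any 1 array: 8 without whole mouse, 10 without the 25% mixture, 7 without the 50%, 3 without the 75% (Fxyd1, Fxyd2 and Fxyd5) and 1 without colon (Kcnn4).

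Serine proteases that cut the channel's extracellular loops, and their inhibitors, had a median undiluted difference of 2.49 log2, higher in colon. Of 7 genes, 3 rose and none fell, against 9.8% and 14.5% of all genes, with a median slope of 2.35 log2. On linear intensity 5 rose, against 13.6%. In each of the 5 fits without 1 array none passed. Matriptase (St14) had 9.21, 10.72, 11.30, 11.59 and 11.70 and rose by 2.35 log2 (adjusted p = 0.0358). Tmprss4, a membrane protease that activates the channel, rose by 2.43 (adjusted p = 0.0338). Tmprss2, named after its values were seen, had the list's largest undiluted difference, with 11.67 in colon and 7.49 in whole mouse (adjusted p = 0.0675). Spint1, an inhibitor of such proteases, rose by 2.15 (adjusted p = 0.0492), and Spint2, a second one, had 13.12 in colon and 10.02 in whole mouse (adjusted p = 0.0519). The channel-activating protease genes Prss8 (prostasin) and Furin, both named after their values were seen, had 8.92 and 6.90 in colon, against 8.56 and 7.35 in whole mouse (adjusted p = 0.157 and 0.223).

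Several other subunits of the sodium pump and small FXYD regulators fell. Of 9 genes, none rose and 5 fell, with a median slope of −1.38 log2. On linear intensity 2 rose (Fxyd3 and Fxyd4) and the same 5 fell, against 13.6% and 15.8% of all genes. The same genes passed with array medians subtracted, and without the colon array none passed. Fxyd2, a regulator known from kidney, fell by 1.61 log2 (adjusted p = 0.0061), and its 4 probe sets had slopes from −2.42 to −0.08. Atp1b2, the beta subunit of glia and neurons, fell by 1.44 (adjusted p = 0.0109, and −0.05 in its other probe set), and Fxyd1 (phospholemman) of heart and muscle by 1.39 (adjusted p = 0.0217). Fxyd6, known from brain, fell by 1.38 (adjusted p = 0.0114), as did Fxyd5 (adjusted p = 0.0101). Atp1b3 lay between 10.66 and 10.87 on all arrays (adjusted p = 0.732). Fxyd4, a regulator of colon and collecting duct induced by corticosteroids in rat, had a signal 2.70 log2 higher in colon than in whole mouse (slope 2.47, adjusted p = 0.075), and Fxyd3, an epithelial regulator, had 10.69 in colon and 9.97 in whole mouse (slope 0.66, adjusted p = 0.057). Both were named after their values were seen. Beside these falls, 2 of 4 neuronal markers, 3 of 5 of striated muscle and 4 of 7 of kidney tubule fell and none rose. Over all genes 14.5% fell and 9.8% rose. The part of these markers in the result was not tested.

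Of 9 genes of kinases and ligases that set the channel's stay at the membrane, 3 rose and 1 fell, against 9.8% and 14.5% of all genes. The 1 fall in 9 (11.1%) thus lay below the share of all genes that fell. At most 1 gene passed without 1 array. Nedd4l, the ligase that removes the channel, rose by 1.10 log2 (8.30, 9.03, 9.08, 9.24 and 9.57; adjusted p = 0.0287, and 0.11 in its other probe set). Its relative Nedd4 fell by 0.77 (adjusted p = 0.0312), and the 3 probe sets of Nedd4 had slopes from −1.24 to −0.11. Sgk2, a kinase of the same family as Sgk1, rose by 1.96 (adjusted p = 0.0463), and Wnk4, a regulator of salt transport, by 1.13 (adjusted p = 0.0326). Wnk1 had 10.55 in colon and 10.77 in whole mouse (adjusted p = 0.185).

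Among genes of steroid reception and its targets the calls depended on the scale. Of 5 genes of receptors, chaperones and steroid handling, 2 rose and none fell, against 9.8% and 14.5% of all genes. Fkbp5, a chaperone and itself a corticosteroid target, rose by 1.82 log2 (adjusted p = 0.0219, and 0.54 in its other probe set). Fkbp4 rose by 0.87 (adjusted p = 0.0499, and −0.18 in its other probe set). On linear intensity 3 rose (also Nr3c1), against 13.6%. The glucocorticoid receptor gene Nr3c1, named after its values were seen, had 8.52 in colon and 7.45 in whole mouse (adjusted p = 0.0597). Its 3 probe sets had slopes from −0.05 to 0.86. Hsp90aa1 lay between 10.74 and 10.91 (adjusted p = 0.595), and its probe sets had slopes from 0.10 to 1.14. Of 7 other corticosteroid-induced genes none rose and 1 fell on the log2 scale. On linear intensity 2 rose (Tsc22d3 and Klf9), against 13.6% of all genes. With array medians subtracted 3 rose (also Per1), where 3149 of all 22626 probe sets rose. Without the 25% mixture 2 rose, where 1306 of all probe sets rose. Each of these counts stood beside the same fall. The 1 fall in 7 (14.3%) on the log2 scale lay close to the 14.5% of all genes that fell. Ndrg2, induced by aldosterone in rat kidney, fell by 0.87 (adjusted p = 0.0145). Tsc22d3 (GILZ) had 9.67 in colon and 8.26 in whole mouse (adjusted p = 0.0654), and its 3 probe sets had slopes from 0.47 to 1.13. The transcription factor gene Klf9, named after its values were seen, had 9.58 in colon and 7.55 in whole mouse (adjusted p = 0.0692). Its 7 probe sets had slopes from 0.04 to 1.70.

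Of 10 genes of other sodium and potassium transport, 4 rose and none fell, against 9.8% and 14.5% of all genes. Their median slope was 1.40 log2, and 0 to 2 passed without 1 array. The chloride cotransporter gene Slc12a2 rose by 2.08 (adjusted p = 0.0342), and its 3 probe sets had slopes from 0.79 to 2.08. The potassium channel gene Kcnq1 rose by 2.14 (adjusted p = 0.0299). The calcium-activated potassium channel gene Kcnn4 rose by 1.34 (adjusted p = 0.011) and the scaffold gene Slc9a3r1 by 1.46 (adjusted p = 0.0239). Atp12a, the colonic proton-potassium pump that aldosterone induces in rat, had 6.55, 9.95, 10.67, 10.93 and 11.46 (slope 4.32, adjusted p = 0.0533). It was 4.91 log2 higher in colon than in whole mouse, more than any of the 6 sodium uptake genes. Its whole mouse signal of 6.55 lay below the array medians, which limits that comparison of sizes.

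**Figure D5:**
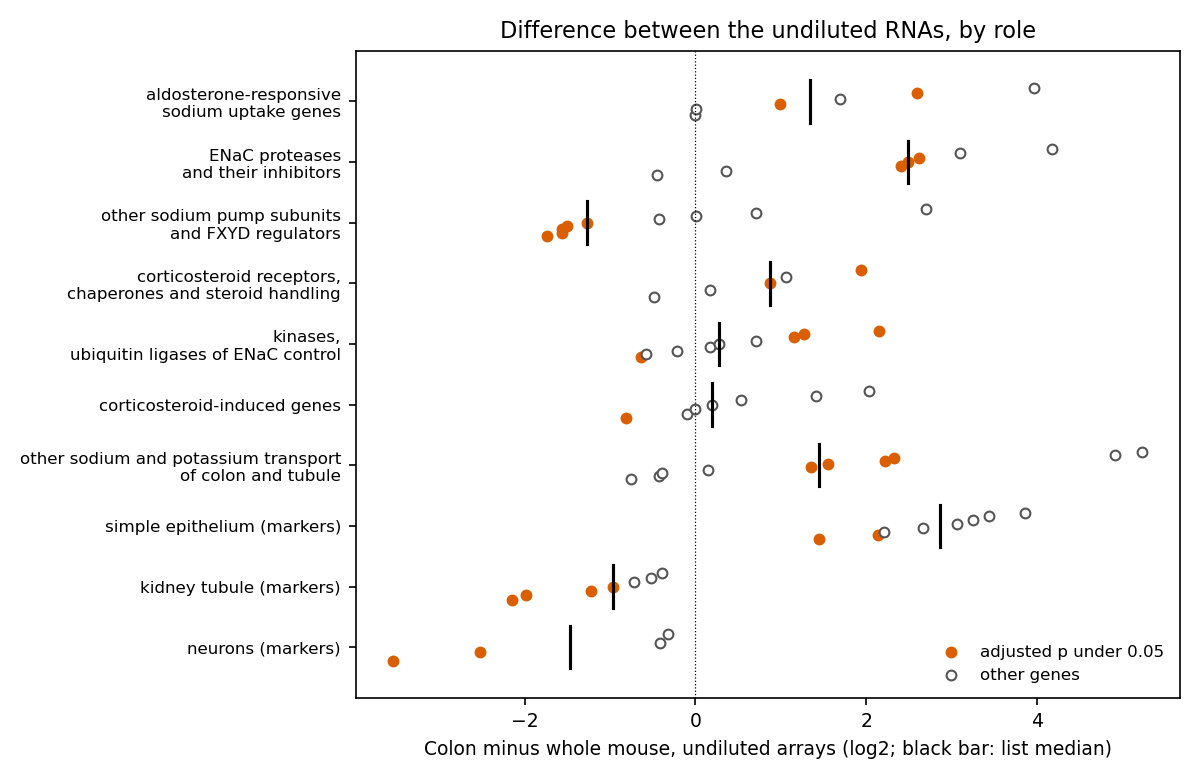
Difference between the undiluted RNAs in log2, colon minus whole mouse (horizontal axis), for each measured gene by role (vertical axis), with filled points for genes past an adjusted p of 0.05 on the slope and black bars for list medians. The 6 sodium uptake genes have a median of 1.34, the protease list 2.49 and the list of other pump subunits −1.27, and 3 marker lists are drawn below.

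General epithelial genes differed between the RNAs as well. All 8 listed ones were at least 2-fold higher in colon, against 9.26% of all genes, and 2 rose past the threshold, against 9.8%. Their undiluted differences were 1.45 to 3.86 log2, with a mean signal of 12.25 in colon and 9.49 in whole mouse. By their brightest probe sets, Hsd11b2 (3.97) lay above that range, Sgk1 (2.60) and Atp1b1 (1.69) inside it, and Scnn1a (0.99), Scnn1b (0.00) and Scnn1g (0.01) below it. The place of Atp1b1 depended on the probe set. Its others differed by 3.94 (above the range), 3.56 and 1.53 (inside it) and 0.40 (below it). The low whole mouse signal of Hsd11b2 and the bright signal of Atp1b1 limit these placings, as stated above for the folds. All 9 colonocyte markers were likewise at least 2-fold higher in colon, by 2.52 to 7.39 log2. The part of epithelial content in the values of the sodium uptake genes was not tested.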

How the data were processed

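Signals of 22690 probe sets on 5 arrays were deposited by the authors as log2 values. They come from RMA, per the submitters' processing notes, a method that corrects background, normalizes by quantiles and summarises probes by median polish. No version of it is given in the sources used here. The 64 control probe sets were left out. Probe sets were named by the platform annotation when it listed 1 gene (20380; 691 had several and 1555 none listed). Each of 22626 probe sets was regressed on the colon share with limma 3.58.1 (R 4.3.3), eBayes moderation, 3 residual degrees of freedom and 2-sided p-values adjusted by Benjamini-Hochberg over all of them; p-values measure technical spread and departure from a straight line, not the spread between mice. The fit was also run on simulated straight lines in log2 with random noise. That run cannot show how the fit behaves on profiles that bend, such as those of Hsd11b2 and Atp1b1.

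The genes, lists and tests were chosen with earlier results of these data known. Named list genes are those past the threshold and the brightest other gene of each list, with 3 nearest profiles per gene. Alternatives left out each array, subtracted array medians, dropped probe sets with a mean under 6, used linear intensity, other variance priors, or the mean of a gene's probe sets.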

Additional observations from a re-analysis of the deposited data

How the results depend on the processing

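Every fitted slope of the 6 genes stayed positive under each alternative run. The number of probe sets called was 4409, and 997 to 2998 without 1 array. With array medians subtracted 3149 rose and 2324 fell, where 1953 rose and 2456 fell before. Of the sodium transport list 19 genes passed, and 1 to 10 without 1 array. Without 1 array the slope of Scnn1a was 0.90 to 1.18 (adjusted p 0.0335 to 0.0569), that of Sgk1 1.26 to 2.92 (0.0601 to 0.119), that of Hsd11b2 1.46 to 4.84 and that of Atp1b1 0.51 to 1.93, the last 2 past the threshold in none of these fits. Hsd11b2 passed with array medians subtracted (3.64 log2), with probe sets of a mean under 6 left out (3.56 log2) and on linear intensity over its mean. Atp1b1 passed with medians subtracted (1.54 log2), as the mean of its probe sets (1.97 log2) and on linear intensity over its mean. The linear slopes, 1.46 for Hsd11b2 and 0.80 for Atp1b1, are multiples of the mean intensity. They are not comparable in size with the log2 slopes. Scnn1b and Scnn1g passed under none. With medians subtracted the undiluted differences of Scnn1b and Scnn1g were 0.0759 and 0.0849 log2, and the mean of its probe sets gave 2.22 for Atp1b1. Read on the log2 scale, the colon share from Hsd11b2 was 71.9% in the 25% mixture and 88.5% in the 50% mixture, and from Sgk1 59.6% in the 25% mixture. On linear intensity, the mean of the Atp1b1 probe sets gave 48.3% in the 25% mixture. Each fit without an array has fewer residual degrees of freedom. The cause of the other changes was not tested. No paired analysis was possible because each mix has 1 array.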
